A study of Mus musculus with 60 samples.

Results

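The libraries described here were the untreated RNA-seq libraries of clone 55, a mouse ESC clone, before and after differentiation into neurons. They were 4 of the 60 libraries of the series, chosen by their labels: 2 ESC libraries of label clone 38 (replicates 1 and 2), and 2 libraries labelled as neurons, 1 of label clone 20 and 1 of label clone 38, called here the clone-20 and clone-38 neurons. The label numbers 20 and 38 differ from the clone number used in most of the paper, although 1 of its figure legends names a clone 55-38. That label clone 20 also belongs to clone 55 was taken from the rule that selected the libraries. The cells descend from F1 2-1, a female ESC line from a cross of the 129/Sv and Cast/Ei strains, so that each gene has a 129 and a Cast allele. All 4 libraries carry the M2rtTA transactivator at ROSA26, an extra copy of chromosome 12 and a doxycycline-inducible Xist transgene on the 129 copy of chromosome 12, and none of them had received doxycycline. The ESCs were kept in 2i medium with LIF. The neurons were grown on laminin in a serum-free neural medium with a retinoic acid step. By the selection rule all the cells derive from 1 clone, which the labels do not state. The paper describes its ESC libraries as 2 biological replicates per clone and condition. Nothing in the labels says that libraries of a cell type came from separate cultures. The p-values below therefore measure the spread between these libraries, which may in part be technical. For the neurons it includes any difference between label clones 20 and 38, whereas both ESC libraries are of label clone 38.

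ESCs hold their identity through a network of transcription factors centred on Pou5f1 (Oct4), Sox2 and Nanog, and in 2i medium the naive factors Esrrb, Klf4, Tfcp2l1, Tbx3 and Zfp42 are part of it. When ESCs become neural, this network is shut down, progenitor genes such as Sox1, Pax6 and Nes come on, and neurons then turn on cytoskeletal genes such as Tubb3, Map2 and Dcx and the genes of the synapse. In a hybrid line, the share of reads from 1 allele, given here as the Cast/all ratio, is near 0.5 where both alleles are transcribed alike and moves away from it with sequence differences between the strains, imprinting, X inactivation or unequal copies of a chromosome.

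The files list a gene for a library where it had at least 8 allelic reads, so a gene that is missing from a library was not measured there and was not taken as 0. The files listed 8172 and 8395 genes in the ESC libraries and 12488 and 13036 in the neuron libraries, with 7555 listed in all 4. The summed allelic reads were 1612315 and 2130938 in the ESCs and 8799237 and 9637446 in the neurons, and the summed whole-gene reads of the listed genes were 4921340 and 7159892 in the ESCs and 27011012 and 28833329 in the neurons. The neuron libraries were therefore the deeper ones, and a gene of low level passed the 8 read limit more readily in them.

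ESC replicate 2 stood apart from ESC replicate 1. Across 6689 genes, Pearson's r of their log2 CPM (whole-gene counts per 1000000 reads, scaled by TMM factors below) was 0.889, against 0.984 and 0.981 between ESC replicate 1 and the 2 doxycycline-treated ESC libraries of this clone, and 0.952 between the 2 neuron libraries. The difference followed transcript length: the log2 ratio of replicate 2 to replicate 1 had a Spearman rho of -0.67 with transcript length across genes, and its median fell from 0.64 in the decile of genes with the shortest transcripts (median 1107 bases) to -1.16 in the decile with the longest (8044 bases). Over the same deciles, the clone-20 neurons went from -0.17 to 0.22 and the clone-38 neurons from -0.31 to 0.33 relative to ESC replicate 1. Expression is therefore given with all 4 libraries, and values without ESC replicate 2 or with an offset for transcript length stand beside it where they change a call or a count of calls. What set ESC replicate 2 apart was not tested.

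**Figure D1:**
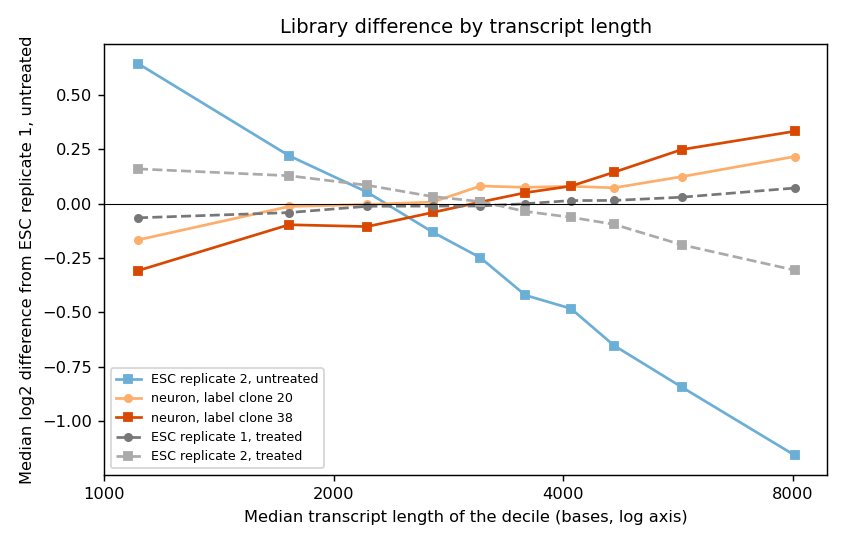
Median log2 difference from untreated ESC replicate 1 (vertical axis) in 10 bins of genes by median transcript length in bases (horizontal log axis), for the other untreated libraries and the 2 treated ESC libraries of the clone. The line of untreated ESC replicate 2 falls from 0.64 to -1.16, while those of the neuron libraries stay between -0.31 and 0.33.

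The 4 markers fixed for the cell types went partly with the labels. Pou5f1 (chr17:35506032-35510777, mm10), the core pluripotency factor Oct4, had 1861 and 2861 CPM in the ESCs and 1009 and 616 CPM in the clone-20 and clone-38 neurons. Both neuron libraries lay below both ESC libraries, with a log2 fold change of neurons over ESCs of -1.54 ± 0.48 (SE, edgeR adjusted p = 0.0232, and 0.0245 without ESC replicate 2). Nanog had 445 and 404 CPM in the ESCs and 180 and 122 CPM in the neurons, a log2 fold change of -1.49 ± 0.41 (edgeR adjusted p = 0.00843). Pou5f1 and Nanog fell, but stayed at 180 CPM or above in the clone-20 neurons. Tubb3, the neuronal beta-tubulin, had 45.7 and 47.4 CPM in the ESCs and 83.1 and 254 CPM in the neurons, a log2 fold change of 1.85 ± 0.44 (edgeR adjusted p = 0.00179). Map2, a dendritic microtubule protein, was listed in the neurons alone, at 21.2 CPM in clone 20 and 185 CPM in clone 38. In a bulk library, fewer cells of a type and less RNA per cell cannot be told apart, so these levels do not say whether the neuron libraries held undifferentiated cells beside neurons or cells of a mixed state. They are called neurons below because their labels do so.

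**Figure D2:**
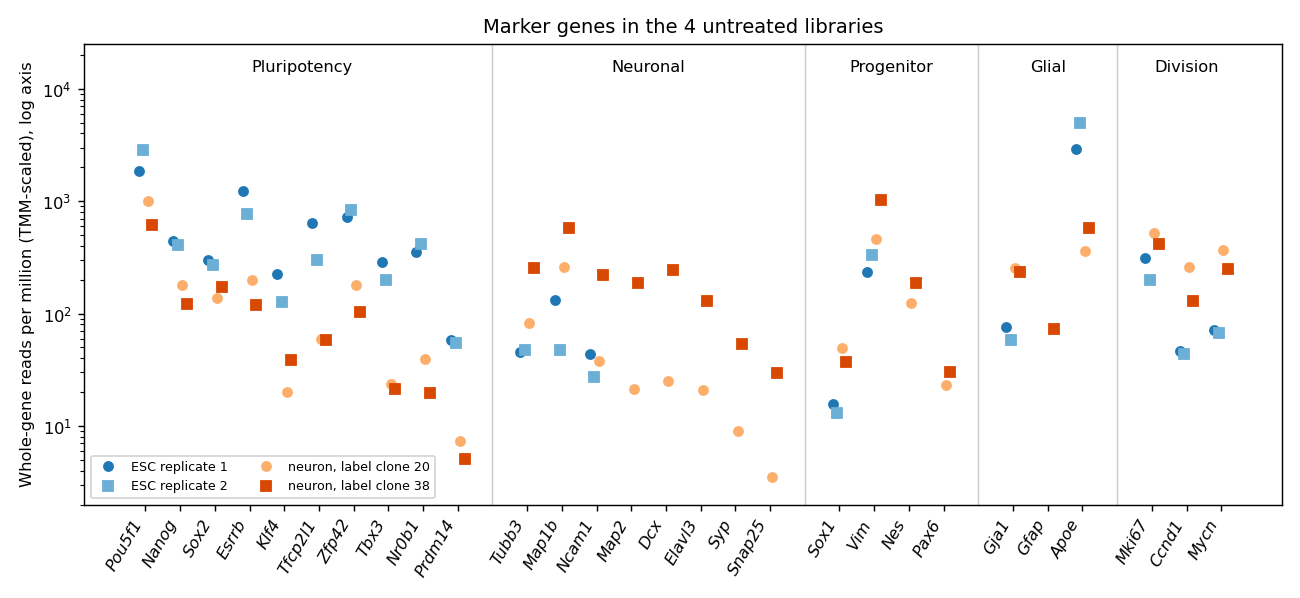
Whole-gene CPM (TMM-scaled, log axis) of marker genes in each of the 4 libraries, 1 point per library, with no point where a gene was not listed. Naive pluripotency genes are lower in both neuron libraries, Map2, Dcx and the synaptic genes have points for the neurons alone, and the clone-38 neurons are above the clone-20 neurons for each of the 8 neuronal genes.

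Across all genes, the comparison of neurons with ESCs tested 7496 genes. Of these, 452 were higher in the neurons (6.03%) and 556 lower (7.42%) at an edgeR adjusted p under 0.05, 1008 in all (13.4%), and the median log2 fold change was -0.01. Without ESC replicate 2, 332 of 8066 genes were higher (4.12%) and 453 lower (5.62%), 785 in all (9.73%). Of the 452 and 556 genes, 250 and 342 were called again in the same direction and 0 in the opposite one. With the length offset, 386 genes were higher (5.17%) and 492 lower (6.59%), and a set of 227 higher and 312 lower genes was called in all 3 fits. In the treated ESCs and neurons of the same clone, which are separate libraries and where 11.1% of genes were higher and 12.3% lower, 279 of the 332 higher genes tested there and 413 of the 523 lower ones were called in the same direction, and 0 in the opposite one. The 2 neuron libraries also differed from each other, and the counts depended on each single library: without the clone-38 neurons 55 genes were higher and 134 lower, without the clone-20 neurons 208 and 172, and without ESC replicate 1 they were 1371 and 1302, where the lone library of a cell type is assumed to vary like the others.

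The pluripotency network fell unevenly. Of 37 listed members, 36 were tested, of which 17 fell and 2 rose, against the 7.42% and 6.03% of all genes, with a median log2 fold change of -1.13. Without ESC replicate 2, 20 fell and 2 rose. The largest falls were those of Spp1, Nr0b1 and Tbx3. Spp1, an osteopontin gene active in ESCs, had 466 and 612 CPM in the ESCs and 39.6 and 22.5 CPM in the neurons, a log2 fold change of -4.12 ± 0.46 (edgeR adjusted p = 3.55e-10). Nr0b1 (Dax1), an orphan nuclear receptor of naive ESCs, went from 351 and 420 to 39.1 and 19.8 CPM (-3.71 ± 0.45 on the log2 scale, edgeR adjusted p = 2.9e-09). Tbx3, a T-box factor of the naive network, went from 286 and 199 to 23.8 and 21.1 CPM (-3.43 ± 0.44, edgeR adjusted p = 1.43e-08). The neuron libraries lay below both ESC libraries in each of these genes, by more than the gap between replicates. Esrrb, an orphan nuclear receptor, went from 1236 and 776 to 198 and 118 CPM, and Zfp42 (Rex1), a zinc finger protein lost early on exit from the naive state, from 725 and 827 to 179 and 104 CPM. Tfcp2l1, a target of LIF signalling, measured 639 and 302 CPM in the ESCs and 59.9 and 58.2 CPM in the neurons, and Prdm14, a repressor of differentiation genes, 57.7 and 55.3 CPM against 7.32 and 5.05 CPM. All 4 passed the test with and without ESC replicate 2.

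Other members of the same list did not pass. Sox2, which neural progenitors also express, had 302 and 270 CPM in the ESCs and 138 and 173 CPM in the neurons (edgeR adjusted p = 0.141, and 0.0457 without ESC replicate 2). Sall4, a zinc finger partner of Oct4, had 251 and 256 CPM in the ESCs and 250 and 226 CPM in the neurons (edgeR adjusted p = 0.914). Utf1, a chromatin protein of undifferentiated cells, had 260 and 397 CPM against 264 and 223 CPM (edgeR adjusted p = 0.531). Sox2 lay below both ESC libraries in both neuron libraries, whereas Sall4 and Utf1 lay within or near the range of the ESCs. The 2 members that rose were Lin28a, an RNA-binding protein that blocks let-7 processing, from 89.3 and 71.5 to 664 and 490 CPM (log2 fold change 2.84 ± 0.44, edgeR adjusted p = 1.49e-06), and Lefty1, a secreted Nodal inhibitor, from 78.3 and 91 to 174 and 319 CPM (1.54 ± 0.41, edgeR adjusted p = 0.00598).

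Promoter sequences of 2 of the genes that fell and of 1 neuron-only gene are printed to show the letters that Oct4, Sox2 and REST are known to bind, each as the 250 bases before the RefSeq gene start (GRCm38.p6), 5′ to 3′ on the gene's strand, with the match in capitals. The octamer-sox composite was searched by the pattern that stands in capitals in Nanog, with any base at its seventh place, the octamer as ATGCAAAT and a part of the REST element as TTCAGCACC, on both strands. The composite and the octamer share letters, and an exact match to one is not required to match the other. Of 27025 genes with such a window, 45 (0.167%) held the composite, 490 (1.81%) the octamer and 94 (0.348%) the REST letters. Among 23 pluripotency genes with a window, the composite was found in 1, Nanog, and the octamer in 2, Spp1 and Zfp42, where the Spp1 window of RefSeq begins inside the gene as listed in the files and is not shown. Among 47 pan-neuronal and synapse genes, the REST letters were found in 2, Nlgn1 and Syn1, and the octamer in 1, Nrxn3. The matches begin 74 bases before the gene start in Nanog (chr6:122707239-122707488, plus strand), 186 bases in Zfp42 (chr8:43307010-43307259, minus strand) and 232 bases in Syn1 (chrX:20920919-20921168, minus strand). A match describes the letters of the window and is not a measured binding site.
Nanog: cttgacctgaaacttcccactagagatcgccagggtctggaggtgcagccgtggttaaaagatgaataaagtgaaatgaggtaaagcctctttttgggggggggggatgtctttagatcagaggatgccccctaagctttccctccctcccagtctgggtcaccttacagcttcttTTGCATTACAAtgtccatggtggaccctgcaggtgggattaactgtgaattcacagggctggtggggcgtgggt
Zfp42: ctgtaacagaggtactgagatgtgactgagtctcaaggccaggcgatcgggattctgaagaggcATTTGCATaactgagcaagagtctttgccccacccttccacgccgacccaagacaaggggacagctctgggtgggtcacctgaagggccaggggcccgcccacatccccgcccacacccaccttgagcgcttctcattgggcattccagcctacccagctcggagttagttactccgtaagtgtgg
Syn1: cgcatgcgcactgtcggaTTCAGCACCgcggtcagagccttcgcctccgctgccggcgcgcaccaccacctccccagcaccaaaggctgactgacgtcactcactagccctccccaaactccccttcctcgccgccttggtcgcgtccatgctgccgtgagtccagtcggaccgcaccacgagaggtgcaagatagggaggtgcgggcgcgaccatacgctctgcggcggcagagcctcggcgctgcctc

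Most pan-neuronal genes could not be tested, and those that could did not move together. Of 33 members, 32 were listed in some library, 20 of them in the neurons alone, against 3207 of all 13509 genes listed in any library. Of the 10 tested, 4 rose and 1 fell, against the 6.03% and 7.42% of all genes, with a median log2 fold change of 1.13. Without ESC replicate 2, 11 were tested, of which 6 rose and 1 fell. In the treated libraries of the clone, 8 were tested, of which 1 rose and 2 fell, against 11.1% and 12.3% there, and the median was -0.21. Tubb3 was not called in those libraries, with a log2 fold change of 0.56 (edgeR adjusted p = 0.118), and Mapt, the axonal protein tau, fell there by 1.69 on the log2 scale (edgeR adjusted p = 0.000408). Map1b, an axonal microtubule protein, had 133 and 47.4 CPM in the ESCs and 260 and 579 CPM in the neurons, a log2 fold change of 2.22 ± 0.45 (edgeR adjusted p = 0.000208, and 0.00128 without ESC replicate 2). Ncam1, a neural cell adhesion molecule, had 43.9 and 27.4 CPM in the ESCs and 38.2 and 222 CPM in the neurons, so that the clone-20 neurons lay within the ESC range. Its log2 fold change was 1.87 ± 0.47 (edgeR adjusted p = 0.00357), and its adjusted p was 0.147 with the length offset. Tubb2a, another beta-tubulin, passed narrowly at 43.1 and 43.1 against 53.9 and 143 CPM (edgeR adjusted p = 0.0485, 0.0753 without ESC replicate 2 and 0.0344 with the length offset). Thy1, a surface glycoprotein of mature neurons, went the other way, from 28.1 and 31.3 to 7.32 and 9.8 CPM (-1.80 ± 0.43, edgeR adjusted p = 0.00183). Among the genes listed in the neurons alone, Dcx, a microtubule protein of migrating neurons, had 25 CPM in clone 20 and 244 CPM in clone 38. Elavl3, a neuronal RNA-binding protein, had 21.1 and 128 CPM, and Rbfox3 (NeuN), the nuclear marker of mature neurons, 1.87 and 18.1 CPM.

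The synapse list had no tested member. Of its 42 genes, 37 were listed in some library. In both neuron libraries and no ESC library, 22 of them were listed, against 3207 of all 13509 genes. The vesicle proteins Syp and Syn1 had 8.96 and 53.3 CPM and 20.8 and 44.3 CPM in the clone-20 and clone-38 neurons. Snap25, a membrane fusion protein, had 3.54 and 29.9 CPM, and Dlg4 (PSD-95), the postsynaptic scaffold, 7.24 and 61.8 CPM. The levels of these 4 genes were higher in the clone-38 neurons. Of the 21 genes of transmitter identity, 8 were listed, and the glutamate transporter Slc17a6 and the GABA enzyme Gad1 were listed in the clone-38 neurons alone, at 12 and 13.3 CPM. Of the 32 neurogenic transcription factors, 22 were listed and 0 could be tested. Sox11, which is active in newly formed neurons, had 274 and 451 CPM in the neurons.

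Genes of neural progenitors were present in both neuron libraries. Of 24 members, 23 were listed, 14 of them in the neurons alone, against 3207 of all 13509 genes listed in any library. Of 3 tested, 2 rose, Sox1 and Vim, against the 6.03% of all genes. In the treated libraries, 4 were tested and 2 fell, against 12.3% of all genes there, and the median log2 fold change was -0.095. Sox1 and Vim were not called in those libraries (edgeR adjusted p = 0.21 and 0.061), and Slc1a3 fell there by 1.72 on the log2 scale (edgeR adjusted p = 0.000622). Sox1, the earliest neuroectoderm factor, had 15.8 and 13.1 CPM in the ESCs and 49.8 and 37.1 CPM in the neurons, a log2 fold change of 1.59 ± 0.42 (edgeR adjusted p = 0.00518). Vim, the intermediate filament of progenitors and many other cells, went from 233 and 330 to 456 and 1018 CPM (1.39 ± 0.44, edgeR adjusted p = 0.0253). Slc1a3, a glutamate transporter of radial glia, had 75.5 and 47.4 CPM in the ESCs, 26.2 CPM in clone 20 and 212 CPM in clone 38, and was not called (edgeR adjusted p = 0.185). Nes, the progenitor filament nestin, had 125 and 186 CPM, Pax6 23.3 and 30.1 CPM and Fabp7, a lipid carrier of radial glia, 44.9 and 380 CPM, each listed in the neurons alone. Both neuron libraries thus held Nes and Pax6 at levels within 1.5 times of each other, whereas Fabp7 differed widely between them. Of 31 Hox and retinoic acid genes, 26 were listed and 17 of them in the neurons alone. Hoxb8 had 7.63 and 98.5 CPM, and Crabp1, a retinoic acid carrier, 92 and 91.9 CPM. The 1 tested member, the receptor Rara, had 53.4 and 41 CPM in the ESCs and 40.7 and 57.5 CPM in the neurons. Of 15 forebrain and midbrain genes, 4 were listed, among them Otx2 at 65.1 and 77.7 CPM and En2 at 12.2 and 18.8 CPM in the neurons.

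Markers of other cell types were also measured. Their counts of genes listed in the neurons alone stand against 3207 of all 13509 genes listed in any of the 4 libraries. Of 12 astrocyte genes, 11 were listed, 4 of them in the neurons alone. Of 4 tested, 2 rose and 1 fell, against the 6.03% and 7.42% of all genes. Gja1, the gap junction protein connexin 43, rose from 76.5 and 57.9 to 255 and 232 CPM (log2 fold change 1.86 ± 0.41, edgeR adjusted p = 0.000712), and Glul, glutamine synthetase, from 92.7 and 80 to 164 and 250 CPM (edgeR adjusted p = 0.0273). Apoe, a lipoprotein of astrocytes that these ESCs also express, fell from 2882 and 4965 to 361 and 580 CPM (-3.06 ± 0.53, edgeR adjusted p = 1.43e-05). Gfap, the astrocyte filament, was listed in the clone-38 neurons alone at 73.6 CPM. The oligodendrocyte list had 2 tested genes of 12, with 0 calls by edgeR, against 13.4% of all genes. There were 0 calls by DESeq2 and 0 at an unadjusted p under 0.05. The tested gene Cnp had 11.5 and 11 against 12.3 and 11.5 CPM, while Sox10 and Mog were not listed. Of 18 mesenchyme genes, 17 were listed and 11 of them in the neurons alone, such as Col3a1, a fibrillar collagen, at 29.3 and 265 CPM and Acta2, smooth muscle actin, at 97.4 and 268 CPM. Fn1, the 1 member tested, had 1319 and 487 CPM in the ESCs and 442 and 702 CPM in the neurons (edgeR adjusted p = 0.37). It was called lower without ESC replicate 2 (log2 fold change -1.25, edgeR adjusted p = 0.0155) and with the length offset (-1.19, edgeR adjusted p = 0.0285). Of 17 endoderm, endothelium and blood genes, 11 were listed, 9 of them in the neurons alone, with Gata4 at 24.5 and 53.9 CPM and Cubn, an endocytic receptor, at 66 and 166 CPM, while the blood genes Ptprc, Cd68 and Aif1 were not listed. The summed level of the genes listed in each library, which are fewer in the shallower ESC libraries, was 1319 and 498 CPM in the ESCs and 1097 and 2427 CPM in the neurons for mesenchyme, and for endoderm, endothelium and blood 135 and 72.3 CPM against 247 and 569 CPM. The part of non-neural cells in the results above was not tested.

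The 2 neuron libraries stood far apart in neuronal genes. Of 32 pan-neuronal genes listed in both, 30 were higher in clone 38 (93.8%), with a median 4.09-fold, and so were 25 of 25 synapse genes (3.45-fold) and 11 of 11 neurogenic factors (2.59-fold), while a further 12 synapse genes and 11 neurogenic factors were listed in clone 38 and not in clone 20. Over all 11995 genes listed in both, 60.5% were higher in clone 38, with a median 1.11-fold. The pluripotency genes went the other way, with 8 of 37 higher in clone 38 and a median 0.731-fold, as did the cell cycle genes with 7 of 43 and 0.814-fold. With 1 library each, these are descriptions of the 2 libraries. Mesenchyme genes moved with the neuronal ones, 12 of 13 being higher in clone 38 with a median 2.75-fold.

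Few genes of cell division changed in the untreated libraries. Of 44 members, 39 were tested, of which 2 rose and 0 fell by edgeR, as by DESeq2, against the 6.03% and 7.42% of all genes, and 3 had a positive and 1 a negative change at an unadjusted p under 0.05. The median log2 fold change was 0.03. In the treated libraries, 40 were tested, of which 7 rose and 1 fell, against 11.1% and 12.3% of all genes there. Mki67, the proliferation antigen, had 313 and 197 CPM in the ESCs and 516 and 415 CPM in the neurons and was not called (edgeR adjusted p = 0.166). The summed level of the list was 9805 and 9164 CPM in the ESCs and 11542 and 9256 CPM in the neurons, so that the groups did not separate beyond their spread. The 2 that rose were Mycn, a Myc factor of neural progenitors, from 71.9 and 66.6 to 370 and 250 CPM (2.16 ± 0.42, edgeR adjusted p = 9.13e-05), and Ccnd1, the cyclin of G1 phase, from 46.6 and 44.1 to 258 and 129 CPM (2.09 ± 0.43, edgeR adjusted p = 0.000243). Both were also called without ESC replicate 2 and with the length offset.

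Chromatin regulators changed in a few members. Of 20 tested genes of DNA methylation and Polycomb, 4 rose and 1 fell, against the 6.03% and 7.42% of all genes. Without ESC replicate 2, 2 rose and 1 fell, with the length offset 2 rose and 2 fell, and in the treated libraries 3 of 19 rose and 6 fell (11.1% and 12.3% of all genes there). The de novo DNA methyltransferases rose in both fits: Dnmt3a from 162 and 106 to 834 and 601 CPM (2.42 ± 0.44, edgeR adjusted p = 4.2e-05) and Dnmt3b from 183 and 112 to 488 and 339 CPM (1.49 ± 0.42, edgeR adjusted p = 0.0092). Eed, a Polycomb repressive complex subunit, went from 210 and 305 to 131 and 92.6 CPM (edgeR adjusted p = 0.0357), and lost its call without ESC replicate 2 (adjusted p = 0.0783) and with the length offset (adjusted p = 0.0561). Of 10 tested BAF remodelling subunits, 1 rose, against 6.03% of all genes: Smarcc2, from 39.5 and 15.4 to 58.2 and 162 CPM (2.01 ± 0.45, edgeR adjusted p = 0.000844). The neuron-specific subunit Actl6b was not listed in these libraries, and the progenitor subunit Actl6a had 188 and 204 CPM in the ESCs and 171 and 130 CPM in the neurons (edgeR adjusted p = 0.58). The splicing regulators had 4 tested genes, with 0 calls by edgeR, against 13.4% of all genes, 0 by DESeq2 and 1 at an unadjusted p under 0.05. Ptbp1, which represses neuronal exons, had 757 and 410 CPM against 908 and 786 CPM (edgeR adjusted p = 0.465).

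Targets of the pathways that the ESC medium holds up or down moved both ways. Of 17 tested, 5 rose and 2 fell, against the 6.03% and 7.42% of all genes, with the same counts without ESC replicate 2. The MAPK targets Dusp4, a MAPK phosphatase, and Spred1, an inhibitor of the pathway, rose, Dusp4 from 19 and 15.1 to 67.2 and 128 CPM (2.52 ± 0.43, edgeR adjusted p = 1.3e-05) and Spred1 from 46.8 and 27.9 to 123 and 145 CPM (1.85 ± 0.42, edgeR adjusted p = 0.00113). Tcf7, a Wnt pathway factor, rose from 21.9 and 13.1 to 55.3 and 56.7 CPM (edgeR adjusted p = 0.00289). The 2 that fell were Cdx1, a Wnt target, from 9.92 and 23.3 to 2.69 and 2.01 CPM (edgeR adjusted p = 3.67e-05), and Socs3, the feedback inhibitor of LIF signalling, from 64.6 and 65.1 to 13.2 and 26.5 CPM (edgeR adjusted p = 0.00226). Of 19 tested glycolysis genes, 5 rose and 1 fell, against the 6.03% and 7.42% of all genes, with a median log2 fold change of 0.56. Pfkl, the liver form of phosphofructokinase, rose from 66.2 and 98.6 to 322 and 549 CPM (2.40 ± 0.43, edgeR adjusted p = 2.96e-05), and Slc2a1, the glucose transporter GLUT1, from 190 and 152 to 434 and 760 CPM (1.81 ± 0.43, edgeR adjusted p = 0.00183). Pfkp, the platelet form of phosphofructokinase, fell from 405 and 413 to 87.1 and 154 CPM (-1.76 ± 0.42, edgeR adjusted p = 0.00172). The 2 forms of the enzyme therefore moved in opposite directions in these 4 libraries. In the treated libraries of the clone, 8 of 19 glycolysis genes rose and 2 fell, against 11.1% and 12.3% of all genes there, with a median of 0.46. With the length offset, 6 of 19 rose and 2 fell, against 5.17% and 6.59% of all genes. The rises were not called once ESC libraries of other clones were added. With 6 untreated ESC libraries of other chromosome 12 clones added to the ESC group, where 7.65% of 5257 genes rose and 6.01% fell, 18 glycolysis genes were tested, of which 0 rose by edgeR, and 0 at an unadjusted p under 0.05, and 2 fell. Their median log2 fold change was then -0.44. Pfkl had a log2 fold change of 0.35 (edgeR adjusted p = 0.829) and Slc2a1 of 0.16 (edgeR adjusted p = 0.9) in that fit, while Pfkp fell by 2.00 (edgeR adjusted p = 0.00103). Of the targets of the medium's pathways, 5 were tested in the same fit, of which 0 rose and 1 fell.

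Of 8 tested adhesion genes, 2 rose, Krt8 and Robo1, against 6.03% of all genes, and 1 rose without ESC replicate 2 and with the length offset. The larger rise was that of Krt8, a keratin of simple epithelia, from 9.72 and 15.3 to 273 and 370 CPM (4.68 ± 0.47, edgeR adjusted p = 9.52e-12). Its partner Krt18 was listed in the neurons alone at 187 and 273 CPM. Robo1, an axon guidance receptor, had 35.2 and 10.2 CPM in the ESCs and 34.2 and 111 CPM in the neurons (edgeR adjusted p = 0.00723), and the call was lost without ESC replicate 2 (adjusted p = 0.174) and with the length offset (adjusted p = 0.132). Of 25 tested imprinted genes, 5 rose and 3 fell, against the 6.03% and 7.42% of all genes. With the length offset, 3 rose and 5 fell. Peg10, a retrotransposon-derived gene, rose from 323 and 104 to 1793 and 1972 CPM (3.14 ± 0.51, edgeR adjusted p = 4.81e-06), and Mest, a hydrolase of the embryo, from 97.6 and 89.6 to 288 and 486 CPM (2.05 ± 0.42, edgeR adjusted p = 0.00025). Cobl, an actin nucleator, fell from 169 and 84.3 to 36.6 and 20.2 CPM (-2.16 ± 0.43, edgeR adjusted p = 0.000195).

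**Figure D3:**
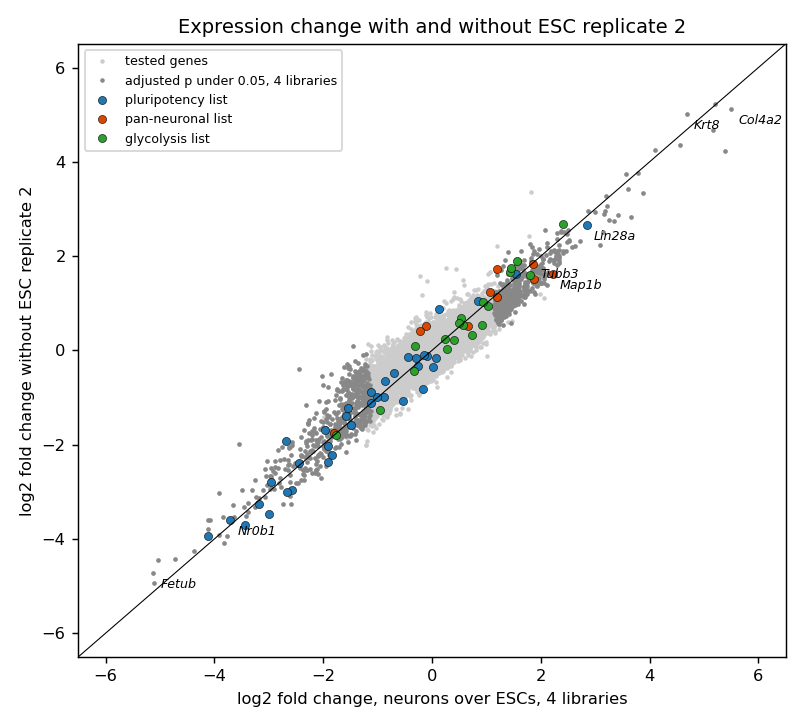
Log2 fold change of neurons over ESCs with all 4 libraries (horizontal axis) and without ESC replicate 2 (vertical axis), 1 point per gene, with the pluripotency, pan-neuronal and glycolysis lists coloured and the line of equal values drawn. Most pluripotency genes lie below 0 on both axes, with Lin28a at 2.84 and 2.66, and Tubb3 lies at 1.85 and 1.83.

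The 10 largest rises and 10 largest falls over all genes were each called again without ESC replicate 2 and with the length offset. Among the genes that rose most were both type IV collagen genes Col4a1 and Col4a2 of basement membranes. Col4a2 (chr8:11312805-11449287) had 32.6 and 19.4 CPM in the ESCs and 488 and 1852 CPM in the neurons, a log2 fold change of 5.50 ± 0.56 (edgeR adjusted p = 1.22e-11). Col4a1, its neighbour on chromosome 8, had 76.1 and 36.4 CPM against 859 and 3197 CPM (5.17 ± 0.58). Lama1, a laminin chain of the same membranes, Serpine2, a protease inhibitor, and Ctgf, a matrix-associated growth factor, had log2 fold changes of 3.88, 4.10 and 3.79, each higher in clone 38 than in clone 20. Pim2, a serine/threonine kinase on the X chromosome, had 12.1 and 13.1 CPM in the ESCs and 526 and 403 CPM in the neurons (5.20 ± 0.48). Pea15a, a death effector domain protein of astrocytes and other cells, had a log2 fold change of 3.60, and Krt8 stands above. The protocadherins Pcdhga7 and Pcdhgc3, neural adhesion proteins, had log2 fold changes of 5.38 and 3.66, but the genes of this cluster share exons, so that reads may be split between them, and Pcdhga7 had counts of 2 and 0 in the ESCs.

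The largest falls were those of Fetub, a secreted protease inhibitor of the fetuin family, from 67.8 and 115 to 3.08 and 2.16 CPM (-5.12 ± 0.48, edgeR adjusted p = 9.1e-13), and Sept1, a septin, from 335 and 440 to 12.9 and 9.64 CPM (-5.11 ± 0.47, edgeR adjusted p = 8.9e-13). The neuron libraries were at 5.05 CPM or below for Serpinb6c (-4.72), 2210409E12Rik (-5.04), Bcl3 (-4.37), a nuclear cofactor of NF-kappaB, and Nupr1 (-4.12), a stress-induced chromatin protein, all on the log2 scale. Gdf15, a stress-induced cytokine (-4.11), Rpl10l, a retrogene of the ribosomal protein Rpl10 (-4.07), and Aqp3, a water and glycerol channel (-3.92), completed the list together with Spp1. Rpl10l shares sequence with Rpl10, and its counts are uncertain for that reason.

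Of 13509 genes listed in any of the 4 libraries, some were listed in 1 cell type alone, 3207 in both neuron libraries and 17 in both ESC libraries. The count for the neurons is read against their greater depth: 1339 of the 3207 genes (41.8%) were listed in at least 1 of the 22 other untreated ESC libraries of the series. The 17 ESC genes go against that difference in depth. The highest were Herc4, a ubiquitin ligase, at 191 and 175 CPM, Trpm1, a cation channel, at 122 and 101 CPM, Lrrc34, a leucine-rich repeat protein of pluripotent cells, at 63.4 and 67.4 CPM, and Pgc, the progastricsin gene, at 39.9 and 51 CPM. Herc4 had 9 and 18 allelic reads in the ESCs, close to the limit for listing. The highest genes of the neurons were Lars2, a mitochondrial leucyl-tRNA synthetase, at 7543 and 9035 CPM, Rpl10 at 2769 and 2086 CPM, the imprinted RNA H19 at 960 and 1738 CPM, and Xist at 628 and 1206 CPM. Rpl10 was listed in 13 and Morf4l2, a chromatin protein, in 21 of the 22 other ESC libraries, and Lars2 had 234 and 250 allelic reads among 193689 and 234202 whole-gene reads. A place in this group therefore does not say that the ESCs lacked the gene.

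The allelic ratio was compared between cell types for 6337 genes with at least 20 allelic reads in each of the 4 libraries. At an adjusted p under 0.05 in the edgeR test of the interaction of allele and cell type, 89 genes were called (1.4%), 45 towards the Cast and 44 towards the 129 allele in the neurons. The count rests on both ESC libraries: without replicate 1, 54 genes were called, and without replicate 2, 7 of 6976 genes were called (0.1%), Jup, Meg3, Myof, Plagl1, Rian, Col4a1 and Lama1, each with an adjusted p of 0.0499, while all 89 kept their direction. In the treated libraries 5 genes were called, and 81 of the 83 genes that could be tested there had the same direction. The neurons lay outside the range of both ESC libraries in all 89, as they did in 2806 of all tested genes (44.3%). Of the 89 genes, 50 were also called for expression, against 13.4% of all genes tested for expression. The share among all genes tested for the allelic ratio was not computed.

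Many of the called genes had a ratio far from 0.5 in the ESCs and nearer to it in the neurons. Leaving out chromosomes 8, 12, 19 and X, 76 called genes remained, of which 67 (88.2%) were closer to 0.5 in the neurons, against 3405 of 5241 tested genes (65.0%). Of the 76, 21 had an ESC ratio under 0.2 and 8 over 0.8. The ESC ratios rest on fewer allelic reads than the neuron ratios, and the part of counting error in this share was not tested. The median size of the shift was 0.22 for the called and 0.0389 for the tested genes.

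Shifts were ranked by the log2 change of the Cast to 129 ratio, which gives larger values to ratios near 0 or 1, and the 10 highest towards Cast had ESC ratios under 0.2. Ndrg1 (chr15:66929318-66969641), a differentiation and stress gene, had Cast/all ratios of 0.182 and 0.023 in the ESCs and 0.539 and 0.511 in the neurons, a log2 change of the Cast to 129 ratio of 3.89 ± 0.52 (edgeR adjusted p = 0.01). The ESC ratios rest on 33 and 87 allelic reads. Jup (chr11:100368856-100397839), the junction protein plakoglobin, had 0.083 and 0.031 in the ESCs and 0.396 and 0.419 in the neurons (3.36 ± 0.32, edgeR adjusted p = 0.00259), from 218 and 127 against 1030 and 1448 allelic reads. Plagl1 (chr10:13090832-13131694), an imprinted zinc finger gene, had 0.062 and 0.030 in the ESCs and 0.339 and 0.322 in the neurons (3.33 ± 0.31, edgeR adjusted p = 0.00259). Ratios of the same kind were found for B4galt6, Htra1, Ephx2, F2r, Aplp1, Acaa2 and Slc30a2, with 0.034 to 0.167 in the ESCs and 0.289 to 0.540 in the neurons. Aplp1, a neuronal relative of the amyloid precursor, had 0.087 and 0.140 in the ESCs and 0.466 in both neuron libraries.

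Among the genes that shifted towards 129, Mapt (chr11:104229409-104332090) had Cast/all ratios of 0.812 and 0.871 in the ESCs and 0.611 and 0.551 in the neurons (-2.03 ± 0.27 on the log2 scale, edgeR adjusted p = 0.01). In the treated libraries Mapt was not called, with ratios of 0.823 and 0.797 in the ESCs and 0.685 and 0.758 in the neurons (-0.65, edgeR adjusted p = 0.486). Gpa33 (chr1:166130221-166166510), an epithelial surface glycoprotein, moved away from 0.5, from 0.449 and 0.498 in the ESCs to 0.192 and 0.120 in the neurons (-2.26 ± 0.25, edgeR adjusted p = 0.00597). Optn, an autophagy receptor, crossed 0.5, from 0.745 and 0.713 to 0.382 and 0.380 (-2.13 ± 0.24, edgeR adjusted p = 0.00597). Smtnl1, Pigp, Iffo2, Rpia and B3glct had ESC ratios between 0.750 and 0.954 and neuron ratios between 0.452 and 0.745. Smtnl1 rests on 25 and 51 allelic reads in the ESCs and 51 and 31 in the neurons. Its ratios in the treated libraries were 0.611 and 0.742 in the ESCs and 0.952 and 0.629 in the neurons. There the log2 change was -0.40 for Rpia (edgeR adjusted p = 0.648), and -2.69, -3.31 and -1.49 for Pigp, Iffo2 and B3glct. Gm6654 moved least in the ratio itself, from 1.000 and 0.995 to 0.940 and 0.924, since its ESC ratios were near 1. Genes that changed in expression were among the called ones, such as Spp1, with 0.373 and 0.340 in the ESCs and 0.593 and 0.662 in the neurons, and Vim, with 0.319 and 0.292 against 0.494 and 0.466. Col4a1 went from 0.857 and 0.925 to 0.677 and 0.668, against medians of 0.655 to 0.670 for its chromosome 8 in these libraries.

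**Figure D4:**
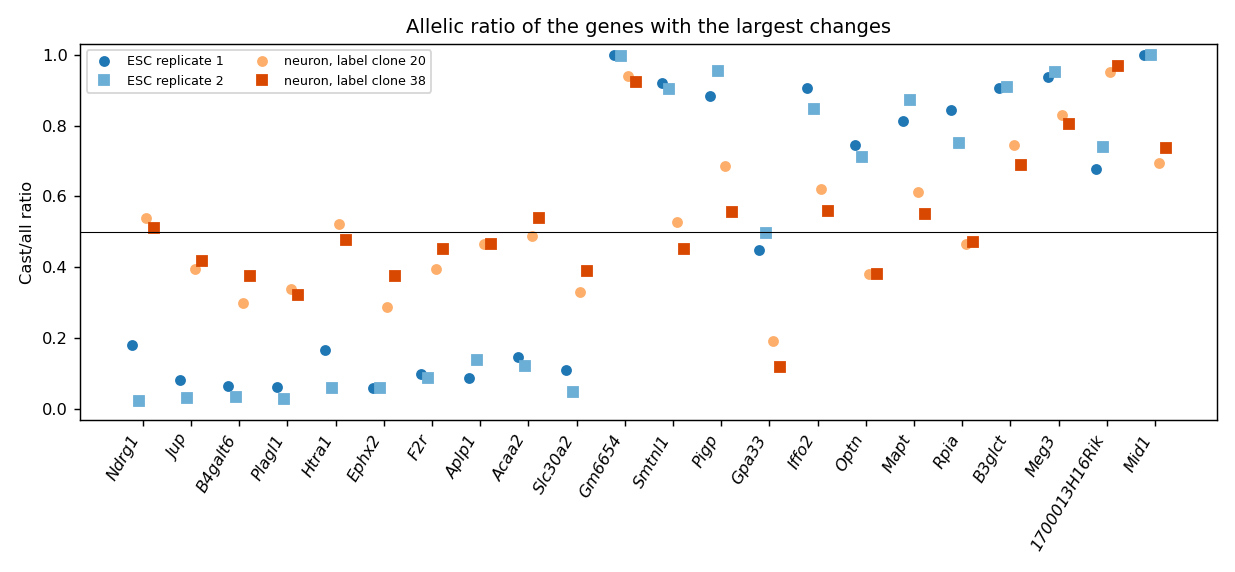
Cast/all ratio (vertical axis, with a line at 0.5) of the genes with the largest called changes, 1 point per library, with the genes that moved towards Cast first, then those that moved towards 129, then 2 X-linked genes. Ndrg1 to Slc30a2 lie below 0.2 in both ESC libraries and between 0.289 and 0.540 in the neurons.

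Of 21 imprinted genes that could be tested for the allelic ratio, 3 were called, against 1.4% of all genes: Plagl1, given above, and 2 non-coding RNAs of the Dlk1-Dio3 region on chromosome 12. Meg3 (chr12:109540996-109571729) had Cast/all ratios of 0.938 and 0.95 in the ESCs and 0.828 and 0.805 in the neurons (-1.94 ± 0.17, edgeR adjusted p = 0.00259), and Rian 0.925 and 0.95 against 0.844 and 0.820 (-1.59 ± 0.18, edgeR adjusted p = 0.00597). Their neighbour Mirg had 0.912 and 0.98 against 0.861 and 0.793 and did not pass (edgeR adjusted p = 0.11). In the treated libraries, the ratios of Meg3 were 0.976 and 0.958 in the ESCs and 0.977 and 0.962 in the neurons, so that no such shift was seen there. Among imprinted genes that were not called, Peg10 had 0.558 and 0.598 in the ESCs and 0.567 and 0.532 in the neurons, Mest 0.613 and 0.456 against 0.398 and 0.505, and Kcnq1ot1 0.206 and 0.282 against 0.285 and 0.279. H19, listed in the neurons alone, had 0.443 and 0.469. Peg10, Mest and H19 thus had reads from both alleles in every library in which they were measured.

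Whole chromosomes were compared by the median Cast/all ratio of their genes. Over 5241 genes of the autosomes other than 8, 12 and 19, the median was 0.497 in each of the 4 libraries. Chromosome 12 (259 genes) had medians of 0.659 and 0.665 in the ESCs, 0.752 in the clone-20 neurons and 0.661 in the clone-38 neurons. The clone-38 neurons lay between the ESC libraries, and the mean difference of 0.0445 rests on clone 20 (exact two-sided permutation p = 0.667, where 2 against 2 libraries cannot go below 0.333), being -0.00105 without it. Chromosome 19 (251 genes) had 0.340 and 0.345 in the ESCs, 0.462 in clone 20 and 0.335 in clone 38 (difference 0.056, exact permutation p = 1, and -0.00743 without clone 20). In the 22 other untreated ESC libraries of the series, the median of chromosome 19 was between 0.493 and 0.509. Chromosome 8 had medians of 0.659 and 0.670 in the ESCs and 0.664 and 0.655 in the neurons. Over the 22 other untreated ESC libraries its median ran from 0.494 to 0.671.

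The shift of the clone-20 neurons covered the whole of chromosomes 12 and 19. Among genes with at least 50 allelic reads in each library, 89.6% of 193 genes on chromosome 12 and 97.4% of 196 on chromosome 19 had a higher Cast/all ratio in the clone-20 neurons than in the mean of the ESCs, against 51.8% and 44.4% in the clone-38 neurons. Split by position, the medians in the clone-20 neurons were 0.749, 0.764, 0.750 and 0.757 in 4 consecutive groups of the genes of chromosome 12, and 0.465, 0.464, 0.461 and 0.458 on chromosome 19. Over the genes of chromosome 19, the median log2 fold change of expression was -0.44 with the clone-20 neurons alone and 0.01 with the clone-38 neurons alone, and on chromosome 12 it was 0.43 and 0.16. In the treated libraries, the median of chromosome 19 was 0.502 in the clone-20 and 0.337 in the clone-38 neurons. The number of copies of these chromosomes was not measured.

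**Figure D5:**
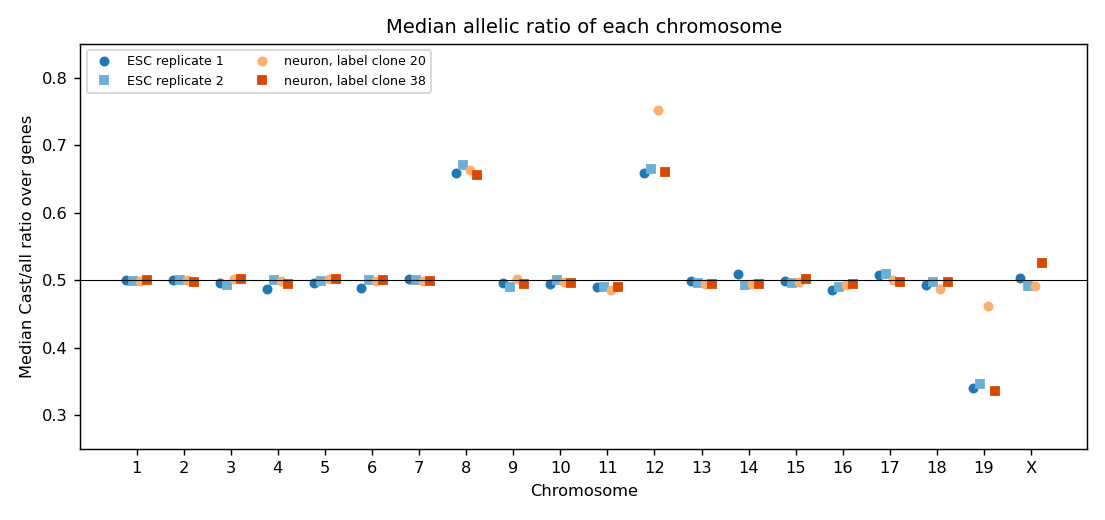
Median Cast/all ratio over genes (vertical axis, with a line at 0.5) for each chromosome, 1 point per library. The medians lie near 0.5 except on chromosomes 8, 12 and 19, where the clone-20 neurons stand above the other libraries on 12 (0.752) and 19 (0.462).

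Female neurons normally silence 1 of their 2 X chromosomes, an X inactivation set off by Xist RNA. Here the median over 194 X-linked genes of the share of Cast reads was 0.503 and 0.491 in the ESCs and 0.491 and 0.525 in the neurons, a difference of 0.0116 (exact permutation p = 0.667) that was -0.00528 without the clone-38 neurons. A bulk ratio near 0.5 is found both where both X chromosomes are active and where cells silence either of them at random. The X-linked share of whole-gene reads was 3.95% and 3.66% in the ESCs and 4.07% and 3.96% in the neurons over 238 X-linked genes listed in all 4 libraries. Both neuron libraries lay above both ESC libraries, by 0.212 percentage points on average (exact permutation p = 0.333, the smallest possible). The difference was 0.0661 percentage points without ESC replicate 2. In contrast, the X-linked share of allelic reads differed by -0.0951 percentage points. Xist was not listed in these ESC libraries, but it was listed in 15 of the 22 other untreated ESC libraries of the series. It had 16126 reads (628 CPM) in the clone-20 and 31252 reads (1206 CPM) in the clone-38 neurons. Of its allelic reads, 3392 of 6409 (52.9%, exact binomial 95% interval 51.7 to 54.2) were from Cast in clone 20 and 3891 of 12054 (32.3%, 31.4 to 33.1) in clone 38. The intervals cover counting error only, and the reads come from the X-linked gene and from any transcript of the transgene together, as well as from the antisense gene Tsix. The paper built the transgene from a Cast/Ei bacterial artificial chromosome. Its transcripts therefore carry the Cast allele, although it lies on the 129 copy of chromosome 12. In the treated libraries, the Cast share of Xist was 93.5% and 96.0% in the ESCs and 89.4% and 78.9% in the neurons.

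Of 13 tested genes known to escape X inactivation, 0 rose and 1 fell in expression by edgeR, as by DESeq2, with 1 in each direction at an unadjusted p under 0.05, against the 6.03% and 7.42% of all genes. For the allelic ratio, 1 of 13 was called, against 1.4% of all genes. Rps4x was the gene that fell, and the call was lost without ESC replicate 2 (adjusted p = 0.391), where 1 other gene of the list rose, and with the length offset (adjusted p = 0.0888). Mid1, which lies across the pseudoautosomal boundary, had no 129 reads among 53 and 48 allelic reads in the ESCs, which allows a 129 share of up to 5.66% and 6.25%, and 780 of 1124 and 699 of 949 Cast reads in the neurons (edgeR adjusted p = 0.01). Kdm5c and Kdm6a, histone demethylases that escape, had ratios of 0.548 and 0.555 against 0.490 and 0.522, and of 0.573 and 0.604 against 0.531 and 0.571, and were not called. Among the genes of X inactivation, Rlim, an activator of Xist, rose from 158 and 141 to 396 and 467 CPM (1.53 ± 0.41, edgeR adjusted p = 0.00658, and 0.0621 with the length offset). 1700013H16Rik was the other called X-linked gene, with ratios of 0.676 and 0.739 in the ESCs and 0.952 and 0.967 in the neurons, from 34 and 92 against 62 and 121 allelic reads.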

How the data were processed

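The series measured polyadenylated RNA by single-end RNA-seq. Per the study's methods, the authors aligned reads with TopHat2 (2.0.6) to the 129/Sv and Cast/Ei genomes and kept the best unique alignment. They read the allele at exonic polymorphisms with SAMtools and summed it per RefSeq gene, with at least 5 reads per polymorphism. Whole genes were counted with HTSeq (0.6.1) on mm10, a step that the paper's methods do not describe. The deposited values are whole-gene counts, counts of Cast and 129 reads, and their ratio, a fraction that the authors gave per gene. A read over several polymorphisms can be counted more than once in the allelic counts. The whole-gene count was below the allelic reads for 348 and 407 listed genes in the ESCs and 713 and 709 in the neurons. It was 0 for 55 and 57 listed genes in the ESCs and 71 and 72 in the neurons. The reason was not tested.

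From these, edgeR 4.0.16 (R 4.3.3, TMM factors, filterByExpr, quasi-likelihood test) was fitted to the whole-gene counts of genes listed in all 4 libraries, with Benjamini-Hochberg adjustment over all genes and a threshold of 0.05. Allelic ratios were tested with edgeR on the Cast and 129 counts with a term for each library, for genes with at least 20 allelic reads in each library. DESeq2 1.42.0 was an alternative. For medians over chromosomes, the libraries were permuted between cell types in an exact two-sided test (scipy 1.17.1). CPM values are counts per 1000000 reads of the TMM-scaled library size, are not divided by length and are compared within a gene. Scripts were tested on simulated data. The length offset, a loess (span 0.5) of log counts on transcript length, was chosen after seeing the data.

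The libraries, gene lists and tests were chosen with earlier results of these data known. Genes were named by a rule: markers, up to 6 members of each list by adjusted p and fold, the 10 largest rises and falls with at least 100 counts in each library of the higher cell type, the 10 largest allelic changes each way, up to 5 X-linked ones each way, and the 10 highest genes listed in 1 cell type alone. Other names, among them all list members listed in the neurons alone, were chosen after their values were seen. A further 8 libraries, labelled clone 292, were assigned to no group and not used here. Some genes that the rule or the lists hold are not reported here. Strandedness was not given in the sources used here, so reads of Xist and Tsix cannot be told apart. Coordinates are of mm10, and promoter sequences are from RefSeq (GRCm38.p6).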

Additional observations from a re-analysis of the deposited data

How the results depend on the processing

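The expression call at an adjusted p under 0.05 (1008 genes) stood at 855 to 1074 under DESeq2, upper-quartile factors, TMM factors without chromosomes X, 12 and 19, other count filters and a fit with the treated libraries added. It was 3401 with missing values taken as 0 (93.2% higher in neurons, against 44.8%), 383 on allele-specific reads (59.3% higher), 1650 in the treated libraries, 252 at an absolute log2 fold change of at least 2, of which 34.5% were higher, and 189 to 2673 with 1 library left out, where 29.1% to 54.7% were higher. Upper-quartile factors moved the median log2 fold change to -0.07. The allelic call (89 genes) was 80 to 93 under DESeq2 and other read limits, 5 in the treated libraries and 7 to 99 with 1 library left out. The difference in median Cast/all ratio on the other autosomes was 1.35e-05, and it was 0.000868 at a limit of 50 reads, 0.00337 on pooled reads and -0.000729 to 4.67e-05 with 1 library left out. The same range was -0.00105 to 0.09 on chromosome 12, -0.00743 to 0.119 on chromosome 19 and -0.00528 to 0.0285 on the X. The X-linked share differed by 0.0661 to 0.359 percentage points with 1 library left out and by -0.0951 on allele-specific reads, and the median log2 fold change of X-linked less autosomal genes was -0.0787. Among named genes, 1123 values kept direction and side of the threshold, 210 lost a call, 26 gained one and 16 changed sign. In the treated libraries the sign changed for Ncam1 (-0.31), Slc1a3 (-1.72), Rara (-0.24) and Qk (-0.055) and for the allelic change of Meg3 (0.16) and Rian (0.22). Meg3 and Rian lie on the chromosome from which Xist was induced in those libraries. With 1 library left out, the log2 fold change ran from -1.23 (without the clone-38 neurons) to 1.79 for Slc1a3, from -0.21 (without the clone-38 neurons) to 0.28 for Rara, from -0.042 (without the clone-38 neurons) to 0.89 for Qk and from -1.25 to 0.24 (without ESC replicate 1) for Fn1, and without ESC replicate 2 it was -0.16 for Rara. With the length offset it changed for Qk (-0.23), with that offset and without ESC replicate 2 for Rara (-0.16) and Qk (-0.29), with upper-quartile factors for Rara (-0.0087), and with 6 ESC libraries of other chromosome 12 clones added for Tpi1 (-0.61). The cause was not tested. No paired analysis was possible because the labels of the neuron libraries carry no replicate number. The depth of the ESC libraries limits the genes tested, and with 2 libraries a cell type a permutation cannot reach the threshold.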
